A study of Mus musculus with 4 samples.

Results

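Lysosomes were examined through 44 genes in the stromal vascular fraction of mouse inguinal fat: 11 cathepsins, 15 other hydrolases and their helpers, 4 membrane proteins, 3 transcription factors of the MiT/TFE family and 11 subunits of the vacuolar proton pump (V-ATPase). They were chosen by gene symbol, with earlier results of these data known. All 44 were found among the 26214 symbols of the count files. All 44 also passed the filter on low counts, so none was left out. RNA was sequenced from mice that received a medicinal herb extract (MHE, 2 libraries) or phosphate-buffered saline (PBS, 2 libraries). The fraction (iWAT SVF) is what remains of digested inguinal white fat, mostly stromal, vascular and immune cells, once floating adipocytes are taken off. The labels call the libraries biological replicates and give no strain, sex, age, diet, dose, duration or composition of the extract, and do not say whether animals were pooled. The deposited PBS files, unlike the MHE files, carry the letters HFD in their names, which the labels do not explain. Whether the groups shared a diet is not given, and a difference in diet cannot be told apart from the extract. Their protocol speaks of 3 libraries a treatment, of which 2 were analysed here.

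Lysosomes are acidic, membrane-bound compartments in which cathepsins cut proteins and other hydrolases take apart lipids, glycans and glycogen. The V-ATPase, built of a membrane sector (V0) and a cytosolic sector that splits ATP (V1), pumps in the protons that most of these enzymes need. TFEB, TFE3 and MITF bind a short sequence, the CLEAR element, near many lysosomal genes, and in fat the macrophages that clear dying adipocytes are known for their many lysosomes.

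Libraries held 27161882 to 33391075 counts, and the lowest count of any listed lysosomal gene was 97 (Atp6v0d2 in MHE replicate 1). Over all genes, 799 of 16196 tested (4.93%) differed between extract and saline at an adjusted p below 0.05 (edgeR quasi-likelihood test, Benjamini-Hochberg adjustment), 643 higher and 156 lower with MHE. Libraries also differed in the cells they held, by their markers. Summed B cell markers stood at 2025 and 1612 CPM (the usual depth-scaled count) with MHE and 112 and 9.60 CPM with PBS. Mature adipocyte markers, of a cell the fraction should lack, summed to 35863 and 50096 against 54995 and 102519 CPM. Of these 12 markers, 10 had a log2 fold change below 0 and 2 above, and in the edgeR test 1 fell and 1 rose. Summed adipocyte progenitor markers overlapped between groups, at 3106 and 6910 against 4338 and 7144 CPM. Smooth muscle and pericyte markers summed to 483 and 832 CPM with MHE and 2820 and 3231 CPM with PBS, with a log2 fold change below 0 for 8 of 8 (median -2.24, 1 fell). Endothelial markers were below 0 for 8 of 8 as well (972 and 950 against 1079 and 1945 CPM, none called by edgeR). Of all genes tested, 51.2% were below 0. The part of these cells in the lysosomal values was not tested. Fewer cells of a type and less RNA per cell cannot be told apart in such bulk libraries.

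The CLEAR core, TCACGTG, was looked for on either strand of each promoter, taken as the 250 bases before to 50 after a listed start of the gene. RefSeq sequences (GRCm38.p6) matched 37 of the 44 genes, with 47 promoters. A gene with more than 1 promoter counted if any of them held the motif. Some listed starts lie inside the gene's full span, as for Atp6v1a, Ctsa and Lgmn. Ctsb, Ctsh, Asah1, Atp6v0d2, Atp6v1b2, Atp6v1c1 and Atp6v1h had no entry in the table. TCACGTG was present in 10 of the 37 (27.0%), beside 4.29% of the 27025 genes in the table and 6.45% of the 12596 of them tested here. The shorter CACGTG, which TCACGTG contains, was present in 12 of the 37 (32.4%) and in 8.09% of all genes in the table. Stretches of 30 bases from 7 of the 10 are shown so that the shared letters can be seen across a cathepsin, glycan-cutting enzymes, membrane proteins and pump subunits. They run 5′ to 3′ on the gene's strand, with the motif in capitals, and a final capital A marks a motif that reads the same on both strands.
Ctsd (chr7:142387908-142387937, minus strand): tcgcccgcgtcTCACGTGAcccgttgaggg
Gaa (chr11:119267811-119267840, plus strand): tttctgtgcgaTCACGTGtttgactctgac
Naglu (chr11:101070009-101070038, plus strand): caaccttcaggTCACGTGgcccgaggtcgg
Lamp1 (chr8:13159088-13159117, plus strand): agggcaagataTCACGTGgtccagcgccca
Mcoln1 (chr8:3500462-3500491, plus strand): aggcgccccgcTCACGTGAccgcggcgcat
Atp6v0d1 (chr8:105566050-105566079, minus strand): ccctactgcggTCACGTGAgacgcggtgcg
Atp6v1a (chr16:44139373-44139402, minus strand): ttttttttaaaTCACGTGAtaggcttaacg
Lamp1 held 4 such matches in its promoter, Mcoln1, Ctsd and Ctsa 2 each, and Lgmn and Glb1 1 each. A match is a description of letters, not of a site that is bound.

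No lysosomal gene of the 44 passed the adjusted threshold in the edgeR test, against 4.93% of all genes. Levels nevertheless sat mostly on 1 side, in a set chosen with earlier results of these data known. The fitted log2 fold change (MHE minus PBS) was below 0 for 39 of 44 (88.6%), against 51.2% of all genes tested, and its median was -0.58, against -0.02 for all genes. Both MHE libraries lay below both PBS libraries for 27 of 44 (61.4%), where 28.9% of all genes did so. They lay above for 4 of 44 (9.09%), where 33.1% of all genes did so, and the groups overlapped for the remaining 13. At an unadjusted p below 0.05, 12 genes were lower with MHE (27.3%, against 11.8% of all genes) and none higher (28.6% of all genes were past that p in either direction). The smallest adjusted p was 0.0648, for Atp6v0a1, and 6 genes were below 0.1: Atp6v0a1, Ctsl, Smpd1, Ctsf, Galc and Atp6v1e1. Scaling by library totals alone shifted the median of all genes to 0.14. Relative to that shift the median of the 44 was -0.56, against -0.55 with the scaling used here, and 36 of 44 were below 0. Single libraries moved the median more: it was -0.38 without MHE replicate 1, -0.66 without MHE replicate 2, -0.37 without PBS replicate 1 and -0.70 without PBS replicate 2.

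**Figure D1:**
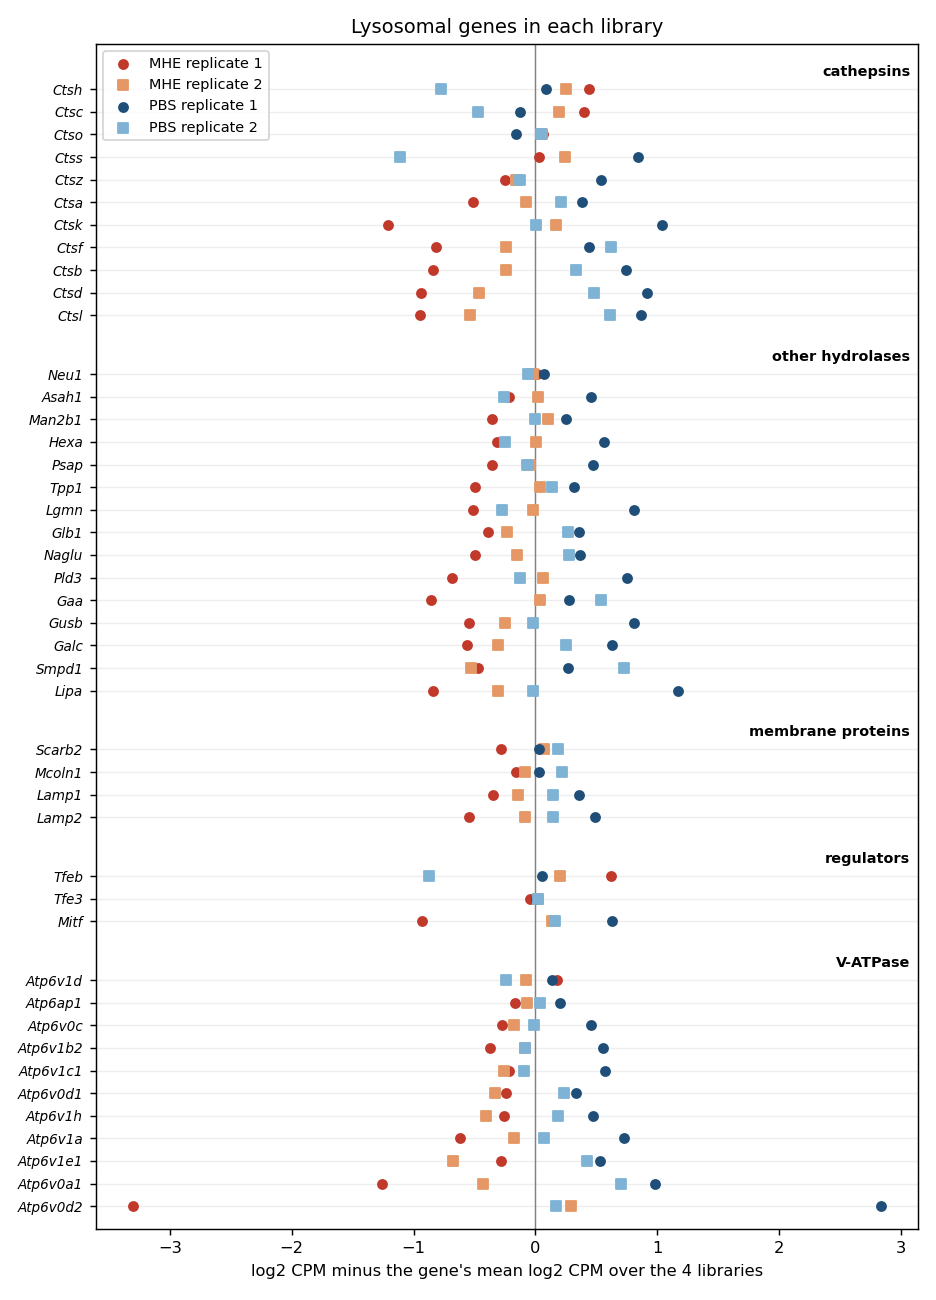
Each row is a lysosomal gene and each point a library, placed by its log2 CPM minus the gene's mean log2 CPM over the 4 libraries (circles replicate 1, squares replicate 2, red and orange MHE, dark and light blue PBS). PBS replicate 1 is the highest library for 33 of 44 genes and MHE replicate 1 the lowest for 31 of 44.

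The 44 genes took 1.00% of all counts in MHE replicate 1 and 1.25% in MHE replicate 2. They took 2.06% in PBS replicate 1 and 1.33% in PBS replicate 2 (exact Clopper-Pearson 95% interval 1.32% to 1.33%, the others as narrow, and for counting error only). The saline libraries thus differed from each other by more than the distance from PBS replicate 2 to MHE replicate 2. PBS replicate 1 was above PBS replicate 2 for 37 of 44 genes, against 51.0% of all genes, and MHE replicate 2 above MHE replicate 1 for 33 of 44, against 50.4% of all genes.

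Among cathepsins, Ctsl, Ctsd and Ctsb had the lowest fold changes, and Ctsh and Ctsc the highest. The median log2 fold change of the 11 was -0.58. At an unadjusted p below 0.05, 3 of 11 were lower with MHE (11.8% of all genes) and none higher. Ctsl (chr13:64361890-64370772), a cysteine endopeptidase, was measured at 368 and 489 CPM with MHE and at 1292 and 1081 CPM with PBS. Both extract libraries lay well below both saline libraries (log2 fold change -1.47 ± 0.33 SE, edgeR adjusted p = 0.0720). Ctsd, the main aspartic protease of lysosomes, stood at 910 and 1266 CPM with MHE and 3284 and 2423 CPM with PBS. Its groups did not overlap either, at -1.39 ± 0.40 and an edgeR adjusted p of 0.108. Ctsb, a cysteine protease, stood at 1284 and 1947 against 3856 and 2890 CPM, again without overlap (-1.06 ± 0.42, edgeR adjusted p = 0.178).

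The 3 cathepsins with the highest fold changes had both extract libraries above both saline libraries. Ctsh, an aminopeptidase that also matures surfactant proteins, stood at 179 and 158 CPM with MHE and 140 and 77.1 CPM with PBS (0.63 ± 0.34, edgeR adjusted p = 0.284). Ctsc, the dipeptidyl peptidase that activates granule proteases of immune cells, stood at 232 and 201 CPM with MHE and 160 and 127 CPM with PBS (0.59 ± 0.25, edgeR adjusted p = 0.196). Ctso was nearly level at 89.0 and 88.4 against 76.4 and 88.3 CPM, the groups parted by less than 0.1 CPM (0.11 ± 0.20).

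A further 3 cathepsins are given by library for their spread or small p, a choice made after their values were seen. Ctsf stood at 30.8 and 45.9 CPM with MHE and 73.6 and 83.8 CPM with PBS, without overlap and with the highest PBS value in replicate 2, unlike most of the 44 (-1.04 ± 0.26, edgeR adjusted p = 0.0868). Ctsk, the collagen-cutting cathepsin of osteoclasts, stood at 38.3 and 99.6 against 182 and 89.1 CPM, where the groups overlapped (-0.97 ± 0.57, or -0.39 without PBS replicate 1, -0.43 without MHE replicate 1 and -1.81 without MHE replicate 2). Ctss (chr3:95526786-95556405), which trims the invariant chain in antigen-presenting cells, stood at 323 and 373 CPM with MHE and 565 and 147 CPM with PBS. Both MHE libraries thus lay between the PBS libraries, and the fitted value was -0.03 ± 0.65. Its sign turned with library totals alone (0.08) and without PBS replicate 1 (1.23, edgeR adjusted p = 0.0592). Of the last pair, the carboxypeptidase Ctsa, which also protects Glb1 and Neu1 in a complex, was at -0.58 and the carboxypeptidase Ctsz at -0.45, both without overlap.

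All 15 other hydrolases had a fitted log2 fold change below 0, against 51.2% of all genes. Their median was -0.62 (-0.36 without either MHE replicate 1 or PBS replicate 1). Both MHE libraries lay below both PBS libraries for 8 of 15, where 28.9% of all genes did so. Lipa, the acid lipase that frees cholesterol and fatty acids from lipoproteins and engulfed lipid, stood at 115 and 166 CPM with MHE and 463 and 203 CPM with PBS. The groups did not overlap, but PBS replicate 1 was far above PBS replicate 2 (-1.24 ± 0.47, edgeR adjusted p = 0.168). Leaving out PBS replicate 1 gave -0.55 for Lipa, and leaving out PBS replicate 2 gave -1.71. Smpd1, acid sphingomyelinase, stood at 56.2 and 53.8 against 93.8 and 129 CPM, with PBS replicate 2 the higher (-1.02 ± 0.24, edgeR adjusted p = 0.0765). Galc, which cuts galactosylceramide, stood at 27.1 and 32.3 against 61.7 and 47.5 CPM, without overlap (-0.88 ± 0.23, edgeR adjusted p = 0.0898). These genes with the lowest fold changes all act on lipids, but so does Asah1, acid ceramidase, which was near the other end.

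Asah1 stood at 109 and 128 CPM with MHE and 173 and 105 CPM with PBS, with overlap (-0.23 ± 0.31). Man2b1, the lysosomal alpha-mannosidase, stood at 139 and 192 against 212 and 178 CPM, also with overlap (-0.24 ± 0.27). Neu1, the lysosomal sialidase, was at 55.1 and 54.0 against 57.5 and 52.4 CPM, the most even of the hydrolases (-0.01 ± 0.18), and its sign turned to 0.15 with library totals alone. The glycan-cutting enzymes Gusb, Naglu and Glb1 were at -0.84, -0.64 and -0.62, and the glycogen-degrading Gaa at -0.75, all 4 without overlap. Of the rest, the peptidase Tpp1 was at -0.43 without overlap, and Pld3, the asparaginyl endopeptidase Lgmn, the sphingolipid activator precursor Psap and Hexa, a subunit of beta-hexosaminidase, ranged from -0.64 to -0.36 with overlapping groups. Psap was the most abundant of the 44 per length of exon, with a mean of 1014 CPM per kb, followed by Ctsd at 927 and Ctsb at 526 CPM per kb.

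The 4 membrane proteins had a median log2 fold change of -0.37. The heavily glycosylated Lamp1, which lines the lysosomal membrane, stood at 581 and 669 CPM with MHE and 948 and 817 CPM with PBS, without overlap (-0.50 ± 0.30, edgeR adjusted p = 0.331). Lamp2, its relative with a role in chaperone-mediated autophagy, stood at 208 and 287 against 428 and 336 CPM, also without overlap (-0.62 ± 0.31, edgeR adjusted p = 0.249). Scarb2, the receptor that carries glucocerebrosidase to lysosomes, stood at 190 and 242 against 235 and 261 CPM, with overlap (-0.20 ± 0.26). Mcoln1, a calcium-release channel, was at 17.6 and 18.6 against 20.1 and 22.9 CPM, a narrow gap without overlap (-0.25 ± 0.20). None of the 4 was past an unadjusted p of 0.05.

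The fitted values of the regulators differed in sign, and none passed. Tfeb stood at 31.9 and 23.9 CPM with MHE and 21.7 and 11.4 CPM with PBS, with both extract libraries higher (0.76 ± 0.37, edgeR adjusted p = 0.246). Tfe3 was level in every library, at 50.4 and 53.0 against 52.4 and 52.9 CPM (-0.03 ± 0.18). With library totals alone the Tfe3 value was 0.14, the same as the shift of all genes. Mitf stood at 11.5 and 24.1 against 34.0 and 24.6 CPM, where MHE replicate 2 and PBS replicate 2 were almost equal (-0.72 ± 0.41, edgeR adjusted p = 0.304). The Mitf value was -0.27 without MHE replicate 1 and -1.33 without MHE replicate 2. The 10 genes with TCACGTG in the promoter had a median log2 fold change of -0.62 (range -1.39 to -0.25), and the 27 matched genes without it -0.45 (range -1.63 to 0.76). These ranges overlap over most of their length, and the difference was not tested.

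Of the 11 V-ATPase genes, 10 had a fitted log2 fold change below 0 (51.2% of all genes). For 9, both MHE libraries lay below both PBS libraries (28.9% of all genes). The median of the 11 was -0.57, and 4 were past an unadjusted p of 0.05, all lower with MHE (11.8% of all genes). These were Atp6v0a1, Atp6v1e1, Atp6v1h and Atp6v0d1. Atp6v0a1 (chr11:101009422-101063719), the a1 form of the large V0 subunit that carries the proton path, stood at 48.8 and 86.6 CPM with MHE and 231 and 190 CPM with PBS. Both extract libraries were far below both saline libraries (-1.63 ± 0.35, edgeR adjusted p = 0.0648). Atp6v1e1, a stalk subunit of V1, stood at 120 and 90.9 against 211 and 196 CPM, without overlap (-0.95 ± 0.25, edgeR adjusted p = 0.0915). The catalytic A subunit gene Atp6v1a was at -0.81, the V1 regulator Atp6v1h at -0.66, the common d subunit Atp6v0d1 at -0.57, and Atp6v1c1 and Atp6v1b2 at -0.51 and -0.49.

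Atp6v0d2 (chr4:19876838-19922566), the d subunit form known from osteoclasts and fused macrophages, had the lowest fold change and the widest spread. It stood at 2.92 and 35.3 CPM with MHE and 206 and 32.3 CPM with PBS. MHE replicate 2 and PBS replicate 2 were close, and the fitted -2.64 ± 1.37 (edgeR adjusted p = 0.270) moved to -0.78 without PBS replicate 1, -1.73 without MHE replicate 1, -3.43 without PBS replicate 2 and -5.33 without MHE replicate 2. At the upper end, the ring subunit Atp6v0c stood at 202 and 217 against 337 and 244 CPM (-0.47 ± 0.28). The accessory subunit Atp6ap1 was at 153 and 164 against 198 and 177 CPM (-0.24 ± 0.22), and both genes were without overlap. Atp6v1d, a subunit of the central rotor, was at 72.5 and 61.0 against 70.7 and 54.3 CPM, with overlap (0.09 ± 0.23).

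**Figure D2:**
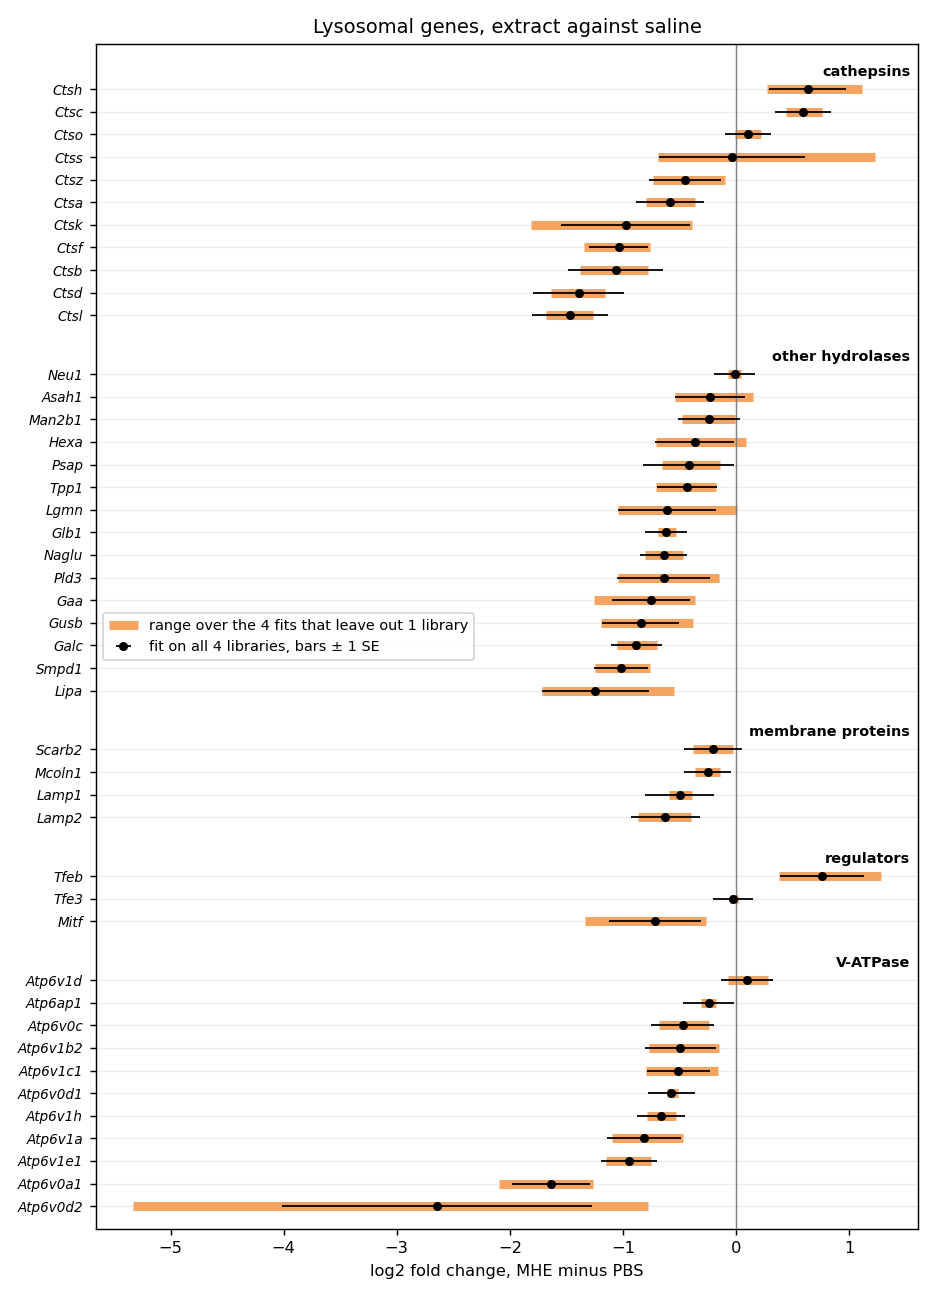
Points are the fitted log2 fold change of each lysosomal gene (MHE minus PBS, x axis) with bars of 1 SE, and orange bands span the 4 fits that leave out 1 library each. Atp6v0d2 has the widest band, from -5.33 to -0.78, while Ctsl, Ctsd and Atp6v0a1 stay below -1 throughout.

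The other V-ATPase genes, which were not among the 44, held the subunit that did pass in the edgeR test. Of 14 listed, 11 were tested and 1 fell: Atp6v0e2, a second form of the small e subunit, at 16.0 and 11.4 CPM with MHE and 67.4 and 55.9 CPM with PBS (-2.17 ± 0.26, edgeR adjusted p = 0.0248). Of all genes, 4.93% passed in the edgeR test. DESeq2 called 3 of the 11 lower and 0 higher, where it called 7.64% of all genes lower. The 3 were Atp6v0e2 and, named after their values were seen, Atp6v0a4 and Atp6v1c2. The lowest log2 fold change of the 11 was -3.86, for a gene that did not pass in the edgeR test. The common form Atp6v0e can be set beside Atp6v0e2 per length of exon. The ratio of Atp6v0e2 to Atp6v0e was 0.243 and 0.259 with MHE and 0.694 and 0.743 with PBS. The ratio of Atp6v0a1 to Atp6v0a2, 2 forms of the a subunit, was 0.689 and 1.36 with MHE and 5.31 and 3.72 with PBS, so a1 was the more abundant form per length in every library except MHE replicate 1. Both ratios were lower in both MHE libraries, with an exact permutation p of 0.333, the smallest that 2 against 2 libraries can give (two-sided). The ratio of Atp6v0d2 to Atp6v0d1 was 0.0162 and 0.209 against 0.765 and 0.129, with overlap (exact permutation p = 0.667). Atp6v0a2 itself was at 93.5 and 84.2 against 57.3 and 67.4 CPM, on the side opposite to Atp6v0a1, without passing (0.51 ± 0.21, edgeR adjusted p = 0.183).

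**Figure D3:**
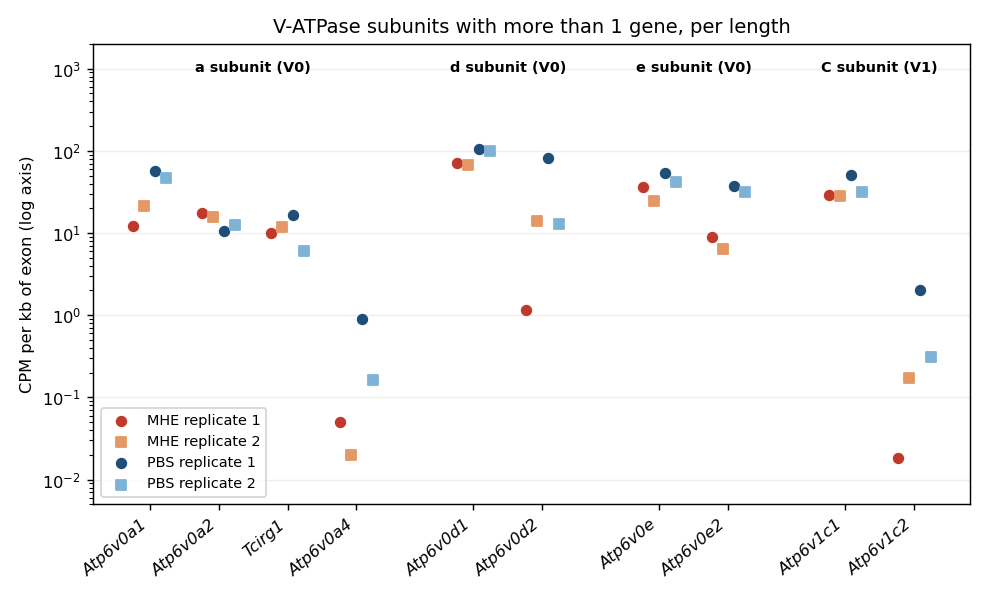
Levels of V-ATPase subunits encoded by more than 1 gene, in CPM per kb of exon on a log axis, with 1 point per library (circles replicate 1, squares replicate 2, red and orange MHE, blues PBS). Atp6v0a1 and Atp6v0e2 are lower in both MHE libraries, while Atp6v0a2 is slightly higher in them and Atp6v0d2 spans from MHE replicate 1 at the bottom to PBS replicate 1 at the top.

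Further genes of the pathway were read from 7 lists, the other V-ATPase genes among them. Of 151 tested, 3 rose and 2 fell, where 4.93% of all genes passed. A fitted log2 fold change below 0 was found for 102 (51.2% of all genes), with a median of -0.19 (-0.02 for all genes). Among 41 other hydrolases and activators, 1 rose: Ctsw, a cathepsin of cytotoxic lymphocytes, at 26.0 and 18.8 CPM with MHE and 2.06 and 0.710 CPM with PBS (4.02 ± 0.57, edgeR adjusted p = 0.0364). The next by p were all lower with MHE and did not pass in the edgeR test, though DESeq2 called all 3. These were Pcyox1, which degrades prenylated cysteines (-1.32), the sulfatase Galns (-1.09) and the amidase Aga (-0.90). Of the 41, DESeq2 called 6 lower and 2 higher, Ctsw and, named after its values were seen, Ctse. Of all genes it called 18.2% in either direction. Pcyox1 also passed with limma-voom, with the replicate block and without either PBS library. Among 7 tested cathepsin inhibitors, 1 rose: Cst7, known from cytotoxic lymphocytes and myeloid cells, at 16.3 and 12.2 against 1.26 and 0.473 CPM (4.04 ± 0.55, edgeR adjusted p = 0.0332). The inhibitor Cstb, which binds the cathepsins B, H and L, was at 73.7 and 67.2 against 181 and 102 CPM (-1.01 ± 0.33, edgeR adjusted p = 0.131), and DESeq2 called it lower. Among 29 tested membrane proteins and transporters, 1 rose in the edgeR test. It was Mcoln2, a relative of Mcoln1 known from lymphocytes, at 19.7 and 14.4 against 4.11 and 2.64 CPM (2.34 ± 0.35, edgeR adjusted p = 0.0381). DESeq2 called 3 of that list higher and 0 lower: Mcoln2 and, named after their values were seen, Laptm5 and Mcoln3. Laptm5 stood at 512 and 567 CPM with MHE and 294 and 130 CPM with PBS (1.35 ± 0.46, edgeR adjusted p = 0.140). Beside Ctsw, Cst7 and Mcoln2, summed T cell markers stood at 1043 and 893 CPM with MHE and 119 and 26.6 CPM with PBS. Of T cell markers 10 of 11 tested rose, and of B cell markers 4 of 10. The part of those cells in the values of these lysosomal genes was not tested.

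Sorting of enzymes to lysosomes depends on adaptors at the trans-Golgi, and of 23 such genes none passed in the edgeR test. At an unadjusted p below 0.05, 3 were higher and 3 lower (16.7% and 11.8% of all genes). DESeq2 called 4 of the 23 (Gga3, Gga2, Ap1m1 and, named after its values were seen, Sort1), 3 higher and 1 lower. Of all genes it called 18.2%, a similar share. Gga3 stood at 30.2 and 30.8 CPM with MHE and 15.3 and 14.8 CPM with PBS, at an edgeR adjusted p of 0.0524 (1.02 ± 0.19), and it passed with library totals alone, with limma-voom and with the stricter filter. Its relative Gga2 was at 0.75 and the adaptor subunit Ap1m1 at 0.79, while another adaptor subunit, Ap1s1, was at -0.71.

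Macrophages are the cells of fat with the most lysosomes, and their markers were present in every library. The 14 macrophage markers summed to 2521 and 3019 CPM with MHE and 3871 and 1807 CPM with PBS, so the groups overlapped, with PBS replicate 1 highest and PBS replicate 2 lowest. Their median log2 fold change was -0.05, and in the edgeR test 1 of 14 rose and none fell. The 1 was Timd4, a receptor for phosphatidylserine on resident macrophages (129 and 88.0 against 2.17 and 1.72 CPM). DESeq2 called Timd4 higher and, named after its values were seen, Vsig4 lower. The 11 markers of lipid-associated macrophages, the subset that gathers around dying adipocytes, summed to 6383 and 10728 CPM with MHE and 16045 and 17848 CPM with PBS. Most of that sum was Lpl and Apoe, and Lpl and Plin2 are adipocyte genes as well. None of the 11 passed in the edgeR test, and 6 were lower at an unadjusted p below 0.05 (11.8% of all genes). DESeq2 called 4 lower (Fabp5, Lgals3, Lpl and Plin2), against 7.64% of all genes. Of the 11, 10 had a fitted log2 fold change below 0 (51.2% of all genes). For 9, both MHE libraries lay below both PBS libraries (28.9% of all genes), and the median was -1.55. Trem2, a defining receptor of the subset and named after its values were seen, stood at 2.62 and 18.3 CPM with MHE and 125 and 24.7 CPM with PBS. MHE replicate 1 was lowest and PBS replicate 1 far highest. Of the 5 osteoclast or giant cell markers, 4 were tested and none passed in the edgeR test, 1 of them positive and 3 negative in log2 fold change. The gelatinase Mmp9, which neutrophils and macrophages make as well, was the only one past an unadjusted p of 0.05, at 16.4 and 27.7 CPM with MHE and 8.30 and 12.4 CPM with PBS (1.09 ± 0.36). The fusion receptor gene Dcstamp stood at 0.361 and 1.30 against 11.4 and 1.49 CPM (-2.96 ± 1.16, called lower by DESeq2), and Calcr had no count in 3 of 4 libraries. The part of macrophages and giant cells in the values of the 44 was not tested either.

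**Figure D4:**
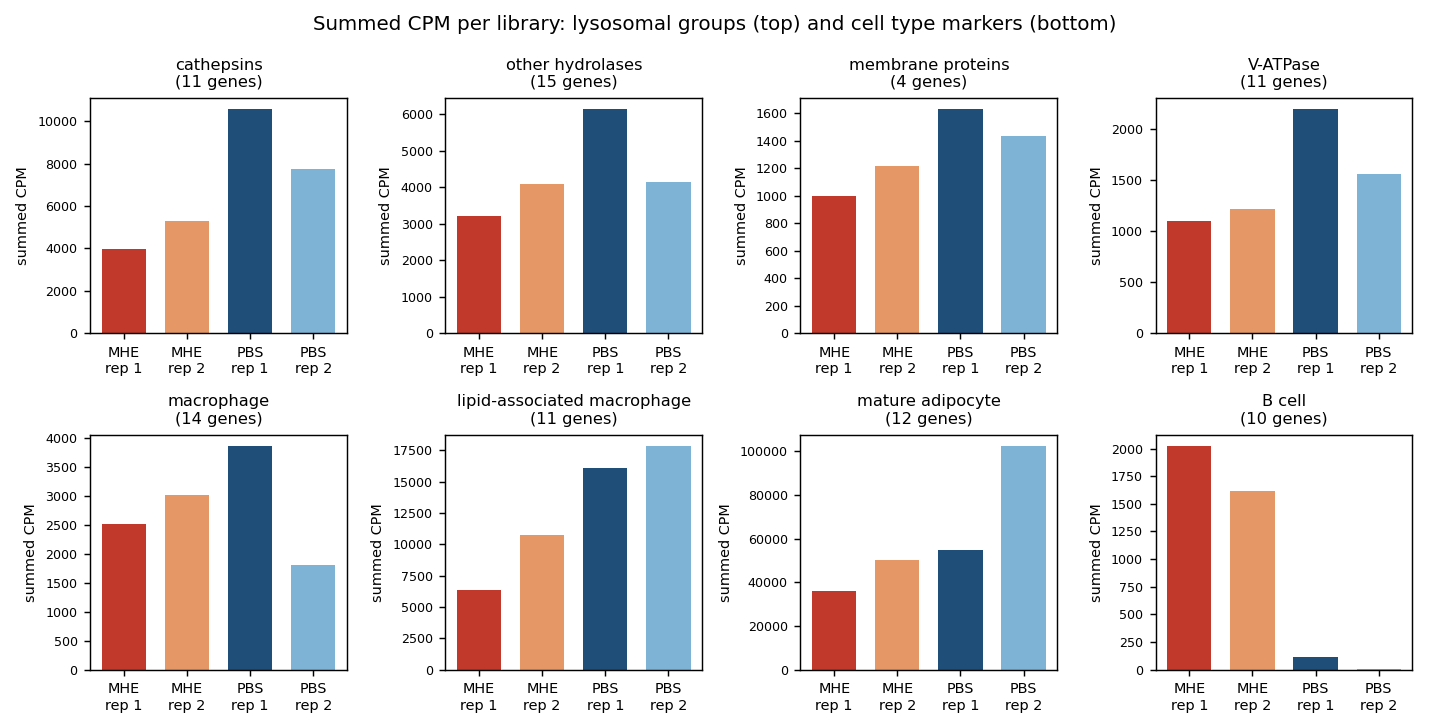
Bars give the summed CPM of each gene group in each library, with lysosomal groups in the upper row and cell type markers in the lower row, and every axis starts at 0. Cathepsins sum to 3975 and 5306 CPM with MHE against 10569 and 7738 CPM with PBS. Macrophage markers overlap between groups. Lipid-associated macrophage markers do not, at 6383 and 10728 CPM with MHE against 16045 and 17848 CPM with PBS.

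Sums over each role showed how far the groups parted. Cathepsins together stood at 3975 and 5306 CPM with MHE and 10569 and 7738 CPM with PBS. V-ATPase genes stood at 1098 and 1210 against 2192 and 1561 CPM, and membrane proteins at 996 and 1216 against 1630 and 1437 CPM. In these 3 groups both MHE libraries were below both PBS libraries. The other hydrolases, at 3221 and 4097 against 6142 and 4145 CPM, parted only narrowly, with MHE replicate 2 and PBS replicate 2 almost level. Psap was most of that sum in every library (2124 and 2640 CPM with MHE, 3778 and 2590 CPM with PBS). Ctsb and Ctsd together likewise made up most of the cathepsin sum. The regulators overlapped, at 93.9 and 101 against 108 and 88.9 CPM.

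How many of the 44 passed depended on the tool and on single libraries. DESeq2 called 9 lower and none higher (7.64% of all genes were called lower by it): Ctsb, Ctsd, Ctsf, Ctsl, Lipa, Galc, Smpd1, Atp6v0a1 and Atp6v1e1. limma-voom called none. Without PBS replicate 1, edgeR called 5, Atp6v0a1, Ctsf and Smpd1 lower and Ctsh and Tfeb higher, where 16.5% of all genes were called. Without PBS replicate 2 it called 6, all lower (Atp6v0a1, Atp6v1a, Ctsl, Galc, Gusb and Lipa), where 7.18% of all genes were called lower. Atp6v0a1 was the only one of the 44 called in both of these fits and by DESeq2. Without either MHE replicate edgeR called none of the 44 and no gene at all, with 2352 and 2596 genes past an unadjusted p of 0.05 without MHE replicate 1 and 2. Leaving out a library leaves its group with 1, which is then assumed to vary like the other group.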

How the data were processed

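Each library's file, as the authors deposited it, lists raw read counts by gene symbol. Per the submitters' processing notes, TopHat2, edgeR, limma and the build mm10 were used. What counted the reads, with which annotation and strand setting, is not given in the sources used here. Reads of overlapping or antisense genes can therefore not be told apart (15 of the 44 genes overlap another gene model). Counts were fitted with edgeR 4.0.16 in R 4.3.3: filterByExpr (minimum count 10, total 15), TMM factors, robust quasi-likelihood fit, Benjamini-Hochberg adjustment over 16196 genes, threshold 0.05. The SE is the absolute log2 fold change over the square root of its F. CPM uses the TMM factors, and exon lengths come from GENCODE. Promoters came from the RefSeq table. The biological coefficient of variation was 33.6%.

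The members and lists were chosen with earlier results of these data known. Values in every library are given for the 3 highest and 3 lowest fold changes of each role, and all members of roles with 4 or fewer; of each pathway list, up to 4 genes with the smallest p could be named, and up to 3 of each marker list. Alternatives were other size factors, DESeq2 1.42.0, limma-voom (limma 3.58.1), other filters, a replicate block and each library left out. On simulated data with these libraries' sizes, in which few genes were changed, the fit recovered 7.33% of genes changed 2-fold. It recovered 57.3% of those changed 4-fold and 90.7% of those changed 16-fold. Of 465 calls, 89 were unchanged genes (3 draws of 16196 genes). All pairs of libraries differed by more than sampling noise. P-values measure the spread between these libraries.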

Additional observations from a re-analysis of the deposited data

How the results depend on the processing

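In simulated data with 2 libraries a group, a 2-fold difference was rarely detected (7.33%). The simulation changed few genes, drawn at any level, and gave 465 calls in 3 draws, against 799 genes called in the data. The 7.33% is therefore not a detection rate for the 44 genes. None of the 44 genes passed with median-of-ratios factors, library totals alone, limma-voom, no filter or a stricter filter. Of 484 fold changes of single genes under 11 alternatives, 447 kept direction and side of the threshold, 20 passed it and 17 turned sign. DESeq2 called 2951 genes in all, 9 of the 44 and 23 other pathway genes, where edgeR called 799, 0 and 5. Leaving out 1 library in turn gave 0 to 2750 genes in all, 0 to 6 of the 44 and 0 to 19 pathway genes. The 0 in all came without MHE replicate 1 or without MHE replicate 2, 2750 without PBS replicate 1 and 2513 without PBS replicate 2. With the replicate block, 764 genes, none of the 44 and 6 pathway genes passed, and the Ctss value was 0.27. Same-numbered libraries deviated together only weakly (r = 0.15 over genes) and the labels do not pair them. Ctss was at 0.26 with limma-voom and 0.079 with library totals alone, which also gave Neu1 0.15 and Tfe3 0.14, and without a filter Neu1 was at 0.0072. Over the fits without 1 library, the ranges that crossed 0 were -0.011 to 0.22 for Ctso, -0.69 to 1.23 for Ctss, -0.71 to 0.085 for Hexa, -0.068 to 0.042 for Neu1, -0.53 to 0.15 for Asah1, -1.05 to 0.0086 for Lgmn, -0.050 to 0.022 for Tfe3 and -0.073 to 0.28 for Atp6v1d. Group medians ranged from -0.80 to -0.39 for cathepsins, -0.81 to -0.36 for other hydrolases and -0.79 to -0.47 for V-ATPase. The cause was not tested.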

Other observations

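Autophagy genes, whose products bring cargo to lysosomes, were not among the 44. Of 24 tested, 1 fell, a share near the 4.93% of all genes that passed in either direction. The gene was Wipi1, which acts on forming autophagosomes, at 13.0 and 19.1 CPM with MHE and 43.7 and 54.4 CPM with PBS (-1.61 ± 0.27, edgeR adjusted p = 0.0454). It also passed under every other setting tried except the fits without an MHE library, in which no gene of any kind was called. The ubiquitin-like autophagy genes Gabarapl1 and Map1lc3a were at -0.71 and -0.77 and did not pass in the edgeR test. DESeq2 called 2 of the 24 lower, Wipi1 and Gabarapl1, and none higher. It called 7.64% of all genes lower, a similar share. Of the 24, 13 had both MHE libraries below both PBS libraries, against 28.9% of all genes.

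Of 16 genes of nutrient sensing on the lysosomal surface, none passed and none was past an unadjusted p of 0.05 in the edgeR test. DESeq2 called none of them either. Flcn, whose product controls the nuclear entry of TFEB and TFE3, stood at 47.8 and 60.2 CPM with MHE and 39.7 and 34.4 CPM with PBS (0.54 ± 0.22, edgeR adjusted p = 0.178). The GTPase gene Rragc stood at 138 and 141 against 201 and 200 CPM (-0.53 ± 0.21, edgeR adjusted p = 0.187), and Tfec, another gene of the MiT/TFE family, at 6.17 and 5.97 against 4.19 and 1.49 CPM (1.10 ± 0.56). Which of these genes passed changed with the PBS library left out, and each such fit leaves that group with 1 library.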
